A study of Mus musculus with 336 samples.

Results

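Ets1, Ets2, Fli1, Erg, Elf1, Spi1, Gabpa, Elk1, Elk3 and Elk4, 10 mouse genes of the ETS transcription factor family, were followed in fibroblasts and liver slices with and without Bmal1. They were taken as a fixed list of symbols, mapped from the Ensembl gene identifiers of the deposited tables, and all 10 were found among the 47515 genes used in the fibroblast course, the 47632 of the liver slice course and the 47631 of a short liver course. With a mean of at least 1 FPKM (a read count scaled to transcript length and library size) as the limit for testing the genotypes together, 7 of the 10 passed in fibroblasts, 10 in slices and 9 in the short course.

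ETS proteins bind DNA through a winged helix-turn-helix domain that reads a short GGAA core. Some members are best known from a cell lineage: Spi1 encodes PU.1, the factor of macrophages and other myeloid cells, and Fli1 and Erg are factors of endothelial and blood-forming cells. Ets1, Ets2, Elf1 and Gabpa are made in many cell types. Gabpa is the DNA-binding subunit of GABP, which controls many genes of mitochondrial function. Elk1, Elk3 and Elk4 are the ternary complex factors, which bind with the serum response factor at promoters of growth-induced genes. In published work on these cultures ETS factors were put forward as drivers of the rhythms that remain without Bmal1, the clock transcription factor gene also named Arntl.

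All cultures came from C57BL/6 mice, either wild type or Bmal1-/-, and all had been given 100 nM dexamethasone for 15 min to set their clocks to one time. In the fibroblast course (mouse skin fibroblasts) and the slice course (thin pieces of adult liver kept on membranes) harvests began 48 h after dexamethasone and went on every 3 h for 3 days. These harvests carry the labels CT00 to CT69. Each genotype therefore had 24 time points. The protocol gives n = 3 per time point and genotype, while the tables hold 1 FPKM column for each. The short course of liver had the labels T00, T06, T12 and T24 with 3 replicates per genotype and time. The labels give no number of animals or fibroblast lines, so the tests measure the spread between these columns, which may be technical. The tables hold FPKM and no counts, so the depth behind each value is unknown.

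Of the 10 genes, 7 have promoter windows in the RefSeq table of GRCm38.p6, which runs from 250 bases before to 50 bases after each start and gave 12 windows. Ets1, Fli1 and Spi1 are named only. The windows were read on both strands for CCGGAAG, the ETS consensus, and for 4 elements through which clock proteins and related factors act: the E-box CACGTG, the D-box TTATGTAA, the cyclic AMP element TGACGTCA and AGGTCA, the core of the element read by REV-ERB and ROR proteins. The CArG box of the serum response factor was searched too. Every exact match other than GGAA is shown with 11 bases on either side, the match in capitals and the orientation that of the gene, since these are the letters through which the family could act on itself or the clock on the family.
Elk4, CCGGAAG at 68 bases before the start: cggcccctcccCCGGAAGtgacgctcgcg
Gabpa, CCGGAAG on the opposite strand at 93 bases before the start: gagggtaagtgCTTCCGGgtccctcagct
Elk1, CACGTG at 7 bases after the start: ccatgagagccCACGTGagcggtgggga
Elf1, first start, AGGTCA at 33 bases before it: taaaggggttgAGGTCAcccagaaggga
Elf1, second start, AGGTCA on the opposite strand at 93 bases before it: atttgcatgttTGACCTagcagaataat
Erg, AGGTCA at 223 bases before the start: cagagtcacgcAGGTCAcacctgctgtg

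CCGGAAG lies in 8.86% of 32851 promoter windows of the same length, CACGTG in 7.15% and AGGTCA in 16.3%. The D-box (0.938% of windows), TGACGTCA (1.79%) and the CArG box (1.63%) had no match in the members' windows, while GGAA was in all 12 member windows and in 96.0% of all windows. Longer upstream stretches that overlap no annotated exon are given for a pair of ternary complex factors, the most abundant member and one called for genotype. Elk4 had the highest median of the 10 genes in both long courses and carries the ETS consensus, in capitals, at chr1:132007370-132007606 on the plus strand.
Elk4: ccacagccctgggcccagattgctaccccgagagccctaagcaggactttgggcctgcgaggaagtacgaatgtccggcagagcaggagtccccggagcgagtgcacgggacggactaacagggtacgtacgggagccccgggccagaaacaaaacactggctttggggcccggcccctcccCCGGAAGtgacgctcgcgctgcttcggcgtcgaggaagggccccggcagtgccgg
The stretch of Elk3 at chr10:93311160-93311409 on the minus strand holds no CCGGAAG, and its GGAA cores are in capitals.
Elk3: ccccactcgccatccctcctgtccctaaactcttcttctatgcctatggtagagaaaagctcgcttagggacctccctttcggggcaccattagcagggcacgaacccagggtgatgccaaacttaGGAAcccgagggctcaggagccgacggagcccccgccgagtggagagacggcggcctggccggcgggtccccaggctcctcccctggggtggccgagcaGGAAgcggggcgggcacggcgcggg
A match is a string of letters, and no binding was measured.

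The labelled tissues carried their defining markers. In slices the summed hepatocyte markers were 1175 to 24470 FPKM in wild type and 1634 to 74150 in Bmal1-/-, and in fibroblasts the summed fibroblast markers had medians of 5605 and 5637 with hepatocyte markers near 0 (0.0944 and 0.1545). Some libraries stood apart. In the slice course 5 of 48 columns (wild type CT66 and CT69, Bmal1-/- CT09, CT39 and CT42) had a median correlation with the other columns below 0.87, from 0.842 to 0.864, against 0.871 to 0.924 for the rest. Values of the members and marker lists in slices are therefore also given without them. Arntl itself was not a check of the knockout: its median was 10.6 FPKM in wild-type and 6.84 in Bmal1-/- fibroblasts, 4.32 and 4.07 in slices, and at T00 of the short course its mean was higher in Bmal1-/- (2.92 ± 0.337, SD, n = 3) than in wild type (0.301 ± 0.152). A gene-level value covers all exons and says nothing of a deletion of a few. Exons of Gabpa, Elf1, Elk3 and Elk4 overlap those of a gene on the opposite strand (Atp5j, Wbp4, Cdk17 and Mfsd4a), and Elk1 and Elk4 share exon bases with Uxt and Gm29103 on the same strand. The library kit keeps the strand but the counting setting is not given in the sources used here, so these 5 values are uncertain by that share.

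Spi1 was near 0 in fibroblasts and abundant in liver, while Elk4, Ets2 and Gabpa were present in both. FPKM is per length, so levels can be set beside each other. In wild-type fibroblasts the medians ran from Elk4 (45.4 FPKM), Gabpa (41.8) and Ets2 (29.6) through Elf1 (22.9), Elk3 (22.7), Ets1 (22.5) and Elk1 (11.5) to Fli1 (1.11) and Erg (0.669), and Spi1 was listed at 0 in 23 of 24 columns. Of the 14 macrophage markers 11 were also at a median of 0 in fibroblasts of each genotype, and their summed level had medians of 3.29 and 2.07 FPKM. Of the 9 neighbouring pairs in this order, 5 overlapped in their ranges. Gabpa stood clear of Ets2, Ets1 of Elk1, Elk1 of Fli1 and Erg of Spi1. By the authors' deposited confidence bounds the first of these steps is not clear. At the median they ran from 23.2 to 59.9 FPKM for Gabpa and from 23.6 to 35.7 for Ets2. In wild-type slices the order was Elk4 (33.9), Ets2 (27.7), Elk3 (25.6), Ets1 (18.5), Spi1 (14.5), Erg (10.8), Gabpa (9.53), Elf1 (8.09), Fli1 (5.13) and Elk1 (2.70). There all 9 neighbouring pairs overlapped, so no step in the order was larger than the spread over time points. In the short course Ets2 was highest (32.7 in wild type) and Fli1 lowest (1.01), again with all 9 neighbours overlapping.

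**Figure D1:**
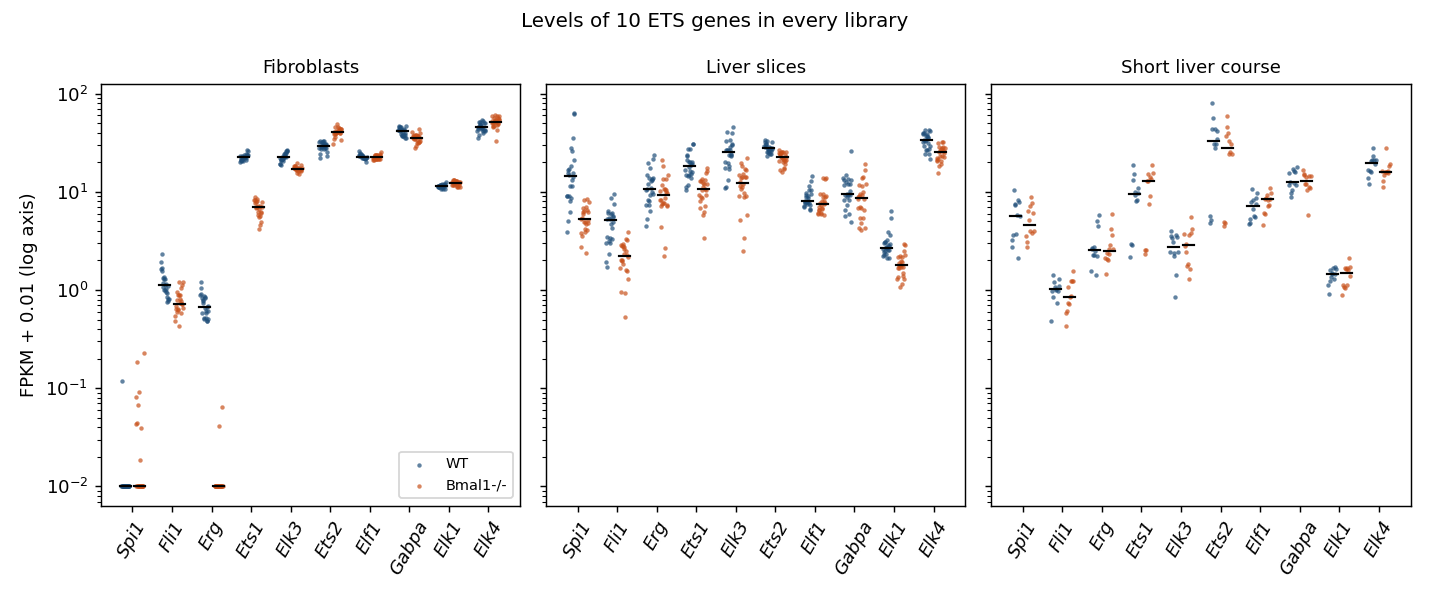
FPKM of the 10 ETS genes (log axis, with 0.01 added so that values of 0 can be drawn) in every column of the 3 courses, wild type in blue and Bmal1-/- in orange, bars at the medians. Spi1 sits at the floor in fibroblasts and Erg does so in 22 of 24 Bmal1-/- columns, while both lie well above it in liver.

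In fibroblasts no 24 h wave was called for any tested member. Each gene was fitted with a 24 h cosine and sine plus a linear trend on log2(FPKM + 1), and the amplitude is the rise from the wave's mean to its peak. In wild type 0 of 8 tested members passed an adjusted p of 0.05 in limma and 0 had an unadjusted p under 0.05, where 0.0341% of all genes passed. In Bmal1-/- 0 of 7 passed, with 0 at an unadjusted p under 0.05, where 0.0% of all genes passed. Fitted amplitudes were small: the largest in wild type was Elk4 (0.073 ± 0.044, SE, log2) and in Bmal1-/- Ets1 (0.046 ± 0.064). The members' median amplitude, 0.033 in wild type and 0.036 in Bmal1-/-, lay below that of all genes, 0.045 and 0.048. The difference of the waves between genotypes passed for 0 of 7, with 0 at an unadjusted p under 0.05 (0.00664% of all genes). In wild type Arntl was not called either (0.086 ± 0.019, adjusted p = 0.3435 in limma). A missing call therefore does not show that a wave was absent.

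Ets1 was lower in Bmal1-/- fibroblasts throughout. Ets1 (chr9:32636221-32757820 in GRCm38), a factor of lymphoid cells, endothelium and migrating mesenchyme, ranged from 20.3 to 26.9 FPKM (median 22.5) over the 24 wild-type columns and from 4.21 to 8.77 (median 6.997) in Bmal1-/-. The ranges did not overlap and Bmal1-/- was lower at 24 of 24 time points. The difference was -1.61 ± 0.054 (SE, log2), adjusted p = 2.271e-30 in limma, and it lay between -1.74 and -1.51 under every alternative run. To be called for genotype a gene needed, besides an adjusted p under 0.05, a difference of 1 or more on the log2 scale. By that rule Ets1 was the 1 called gene of 7 members, where 16.0% of all genes were called.

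The other members moved less, and in both directions. Ets2 was higher in Bmal1-/- at 24 of 24 time points, with medians of 29.6 and 40.7 FPKM and overlapping ranges (0.47 ± 0.043, log2). Elk3, also known as Net and a repressor in its resting form, was lower at 24 of 24, with medians of 22.7 and 17.2 (-0.38 ± 0.030). Gabpa was lower at 23 of 24 (-0.21 ± 0.039), Elk4 higher at 19 (0.17 ± 0.049) and Elk1 higher at 22 (0.09 ± 0.019). These 5 passed the adjusted p and missed the size limit. Without that limit 12171 of all 15065 genes passed in fibroblasts. Elf1 had medians of 22.9 and 22.4 FPKM (-0.02 ± 0.020, adjusted p = 0.272). The median difference was -0.02 over the 7 members and -0.04 over all genes.

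Erg, the endothelial factor, was at the low end of wild-type fibroblasts (0.471 to 1.204 FPKM, median 0.669) and listed at 0 in 22 of 24 Bmal1-/- columns, whose highest value was 0.0551. The authors' deposited lower confidence bound was above 0 in all 24 wild-type columns and in 0 Bmal1-/- columns. Erg was below the limit for testing. In the fit without that limit it was -0.76 ± 0.029 and Fli1 -0.31 ± 0.059, both under the size limit. Genes of the endothelial marker list were lower too: their summed level was 83.2 to 96.9 FPKM in wild type and 4.40 to 11.3 in Bmal1-/-. Of the 5 tested 4 were called lower, where 16.0% of all genes were called for genotype. Among them were Eng, a co-receptor for TGF-beta ligands (median 60.7 against 0.548 FPKM, -5.29 on the log2 scale), and Clec14a (9.38 against 0.0622). The defining markers Tie1 and Robo4 had a median of 0 in both genotypes and Cdh5 was at 0.0531 and 0 FPKM. Whether the cultures held endothelial cells, and any part of such cells in the Ets1 and Erg differences, was not tested. Fibroblast markers also differed, 4 of 5 tested being called, with Thy1 at 501 against 88.0 FPKM and Dcn at 1082 against 3874, so the cultures differed in more than this family.

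Over the 3 days some members drifted. In wild-type fibroblasts 4 of 8 members had a linear trend (31.1% of all genes): per 24 h Elk3 rose by 0.13 ± 0.015 on the log2 scale, Ets1 by 0.07 ± 0.016, and Fli1 and Elf1 changed by -0.23 ± 0.037 and -0.06 ± 0.011. Ets1 rose from a median of 21.2 FPKM on the first day to 23.9 on the third. In Bmal1-/- 0 of 7 passed in limma, 2 had an unadjusted p under 0.05, and 26.3% of all genes passed. The difference between the trends, added after the data were seen, passed for 3 of 7 members: Ets1 (-0.20 ± 0.055 per 24 h), Elk3 (-0.16 ± 0.024) and Elf1 (0.10 ± 0.019), where 26.4% of all genes passed. With the first day left out Elk3 was -0.14 (adjusted p = 0.0885), Elf1 0.10 (adjusted p = 0.114) and Ets1 -0.07 (adjusted p = 0.827), and Elf1 was also lost without the third day (0.08, adjusted p = 0.140).

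**Figure D2:**
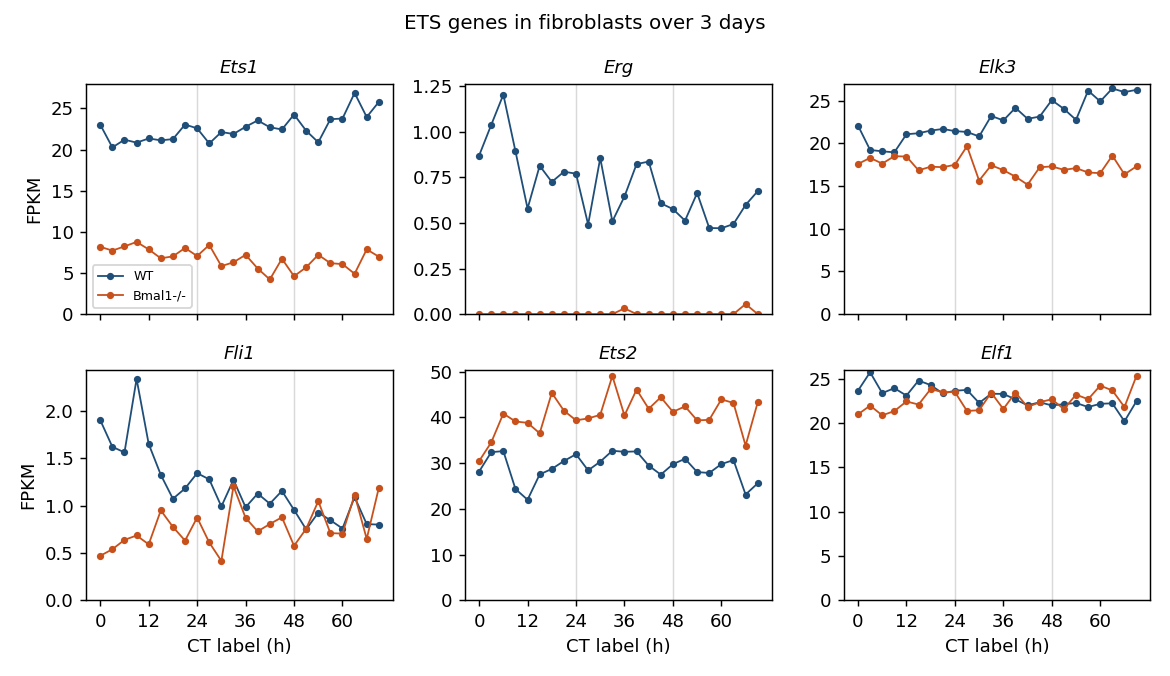
FPKM of 6 ETS genes in fibroblasts against the CT label in hours, 1 point per column, wild type in blue and Bmal1-/- in orange, vertical lines at 24 and 48 h. Ets1 in Bmal1-/- stays at or below 8.77 FPKM, under every wild-type point, and no gene shown had a called 24 h wave.

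In slices Spi1 was lower in Bmal1-/- and had a called wave in wild type. Spi1 (chr2:91082390-91115756), the myeloid master factor, ranged from 3.89 to 63.4 FPKM (median 14.5) in wild type and from 2.35 to 8.54 (median 5.26) in Bmal1-/-. The ranges overlapped, and Bmal1-/- was lower at 21 of 24 time points. In wild type the values at the hour of CT18 were 17.2, 28.0 and 61.4 FPKM on days 1, 2 and 3, against 3.89, 6.22 and 11.6 at the hour of CT03. Each day held a low and a high, and the highs climbed. In Bmal1-/- the same hours gave 6.21, 2.35 and 5.21 against 5.31, 8.20 and 6.49, with no such order. The genotype difference was -1.34 ± 0.16 (SE, log2; adjusted p = 6.859e-10) and -1.15 without the 5 low-correlation columns. With each column rescaled by the median of its gene ratios it was -0.98 and so below the size limit.

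The wild-type wave of Spi1 had an amplitude of 0.69 ± 0.14 and a peak at 17.7 h (adjusted p = 0.0327), on a trend of 0.61 ± 0.11 per 24 h (adjusted p = 8.338e-04). In Bmal1-/- the amplitude was 0.14 ± 0.11. The difference of the waves themselves was 0.72 ± 0.18 (adjusted p = 0.0419). Without the low-correlation columns the wild-type wave was 0.60 (adjusted p = 0.0536) and the difference 0.54 (adjusted p = 0.169), so neither was called. The wild-type wave was also lost when any 1 of 10 time points was left out (adjusted p up to 0.0925), and the difference with any 1 of 12 (adjusted p up to 0.126).

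Markers of macrophages and Kupffer cells, the resident macrophages of liver, ran beside Spi1. Their summed level was 292 to 7741 FPKM in wild type (median 1345) and 112 to 648 in Bmal1-/- (median 254). Of the 13 tested 12 were called lower (5.22% of all genes were called for genotype), also without the 5 columns. The mean of the list, with -1.93 ± 0.28 on the log2 scale, fell further than Spi1, which relative to it was higher in Bmal1-/- by 0.59 ± 0.12. In wild type the list had a wave of 0.86 ± 0.17 with its peak at 17.3 h and a trend of 0.87 ± 0.14 per 24 h, and in Bmal1-/- a wave of 0.53 ± 0.15 with its peak at 3.31 h. With the low-correlation columns left out the list differed by -1.64 ± 0.24, Spi1 relative to it by 0.55 ± 0.12, and the waves were 0.76 ± 0.15 and 0.51 ± 0.15. Across libraries Spi1 and the list had r = 0.972 in wild type (n = 24) and 0.724 in Bmal1-/- (n = 24), and 0.951 and 0.666 without the low-correlation columns. The points share a library and its depth. How far the Spi1 results reflect macrophage RNA was not tested. In bulk tissue fewer cells of a type and less RNA per cell cannot be told apart, so the level of Spi1 and the number of macrophages are not separated here.

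Of the endothelial pair, Fli1 had a called wave in wild type and Erg had none in either genotype. Fli1 (chr9:32422204-32542861) ranged from 1.72 to 9.47 FPKM (median 5.13) in wild type and from 0.526 to 3.90 (median 2.21) in Bmal1-/-. The ranges overlapped and Bmal1-/- was lower at 22 of 24 time points (-0.84 ± 0.12, adjusted p = 8.216e-08, under the size limit; -0.68 without the low-correlation columns). Its wave passed in wild type (0.42 ± 0.094, peak 18.1 h, adjusted p = 0.0480) and not in Bmal1-/- (0.27 ± 0.11, adjusted p = 0.212 in limma). The difference of the waves passed (0.65 ± 0.15, adjusted p = 0.0278). Without the low-correlation columns the wild-type wave was 0.41 (adjusted p = 0.0911) and the difference 0.54 (adjusted p = 0.0984). Leaving out any 1 of 17 time points ended the wild-type call and any 1 of 5 that of the difference (adjusted p up to 0.125 and 0.0945). Erg (chr16:95359169-95586593) ranged from 4.46 to 23.98 FPKM in wild type (median 10.8) and from 2.22 to 21 in Bmal1-/- (median 9.21), overlapping almost fully, and was lower at 15 of 24. Its difference of -0.28 ± 0.16 had an adjusted p of 0.109 and was -0.04 (adjusted p = 0.779) without the low-correlation columns, and its waves missed the threshold (0.35 ± 0.12 and 0.42 ± 0.17, peaks at 18.9 and 1.67 h).

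Elk3 and Ets1 were also lower in Bmal1-/- slices. Elk3 (chr10:93247414-93311135) ranged from 11 to 46.1 FPKM (median 25.6) in wild type and from 2.47 to 21.9 (median 12.2) in Bmal1-/-, overlapping, with Bmal1-/- lower at 22 of 24 (-1.06 ± 0.17, adjusted p = 4.028e-07; -0.80 without the low-correlation columns, and so below the size limit). Leaving out CT39, CT42 or CT66 alone also ended that call (-0.98, -0.98 and -0.99). Its wave in wild type just missed (0.41 ± 0.10, adjusted p = 0.0582), while the difference of the waves passed (0.82 ± 0.21, adjusted p = 0.0484). That difference was 0.60 (adjusted p = 0.149) without the low-correlation columns, and any 1 of 17 time points left out also ended the call (adjusted p up to 0.127). Ets1 ranged from 10.4 to 30.8 FPKM in wild type (median 18.5) and from 3.40 to 17.5 in Bmal1-/- (median 10.6), lower at 23 of 24 (-0.80 ± 0.12, and -0.64 without the low-correlation columns). Its wild-type wave passed (0.39 ± 0.081, peak 18.1 h, adjusted p = 0.0332), but not without the low-correlation columns (0.36, adjusted p = 0.0783) or without any 1 of 12 time points. In Bmal1-/- the amplitude was 0.05 ± 0.14, and the difference of the waves did not pass (0.43 ± 0.16, adjusted p = 0.201).

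Endothelial markers had no genotype call. Their summed level was 761 to 2651 FPKM in wild type (median 1342) and 190 to 3192 in Bmal1-/- (median 1432), and none of the 12 list genes had a median of 0. In limma 0 of 11 tested were called for genotype, and 9 had an unadjusted p under 0.05, as had 10716 of all 14566 genes. The mean of the list differed by -0.53 ± 0.19 on the log2 scale, where the median over all genes was -0.34. Against the list mean Elk3 was lower in Bmal1-/- by a further -0.53 ± 0.063, Fli1 by -0.31 ± 0.098 and Ets1 by -0.27 ± 0.11, while Erg was higher by 0.25 ± 0.080. The list had a wave of 0.43 ± 0.11 with its peak at 17.5 h in wild type and of 0.41 ± 0.23 at 2.88 h in Bmal1-/-. Leaving out the low-correlation columns gave a list difference of -0.21 ± 0.14 and waves of 0.39 ± 0.12 in wild type and 0.08 ± 0.14 in Bmal1-/-, so its genotype difference and its Bmal1-/- wave rest on those columns. Relative to the list Elk3 was then -0.58 ± 0.064, Fli1 -0.45 ± 0.063, Ets1 -0.42 ± 0.082 and Erg 0.20 ± 0.081. With the list across libraries, r was 0.950 for Fli1, 0.945 for Erg, 0.937 for Elk3 and 0.918 for Ets1 in wild type, and 0.909, 0.900, 0.955 and 0.823 in Bmal1-/- (n = 24 each). In the 21 Bmal1-/- columns left without the low-correlation ones these became 0.839, 0.693, 0.856 and 0.707. How far the waves of these members are waves in the amount of endothelial RNA was not tested.

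**Figure D3:**
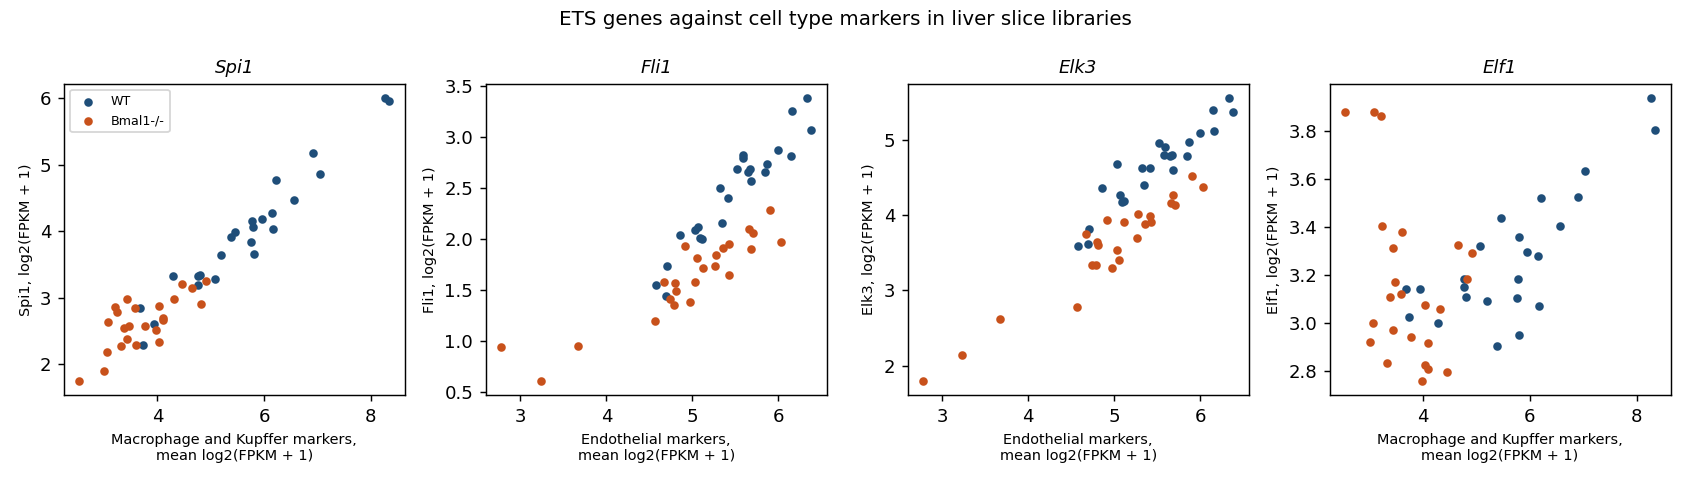
Each slice column as a point, log2(FPKM + 1) of an ETS gene against the mean log2(FPKM + 1) of a cell type marker list, wild type in blue and Bmal1-/- in orange. Spi1, Fli1 and Elk3 rise along their list in both genotypes, and Elf1 does so in wild type (r = 0.786 with the macrophage list) and not in Bmal1-/- (r = -0.387), with 0.608 and -0.224 without the low-correlation columns.

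Besides Ets1 in wild type, the broadly expressed members with a called wave in slices were Elf1 in both genotypes and Gabpa in Bmal1-/-. Elf1 (chr14:79481194-79582494), a factor first known from T cells, ranged from 6.49 to 14.3 FPKM in wild type (median 8.09) and from 5.77 to 13.7 in Bmal1-/- (median 7.53), and the ranges overlapped. Both genotypes had a wave: 0.25 ± 0.049 with its peak at 17.7 h in wild type (adjusted p = 0.0327) and 0.29 ± 0.061 with its peak at 16.2 h in Bmal1-/- (adjusted p = 0.0192). Both were also called without the low-correlation columns (0.22, adjusted p = 0.0478, and 0.26, adjusted p = 0.0495). The wild-type call was lost without any 1 of 9 time points and the Bmal1-/- call without CT15 (0.27, adjusted p = 0.0609). Leaving out day 1, day 2, day 3 or the limit for testing also ended the wild-type call. Leaving out day 2 or day 3 ended the Bmal1-/- call. Over the alternatives the adjusted p in limma reached 0.351 in wild type and 0.306 in Bmal1-/-. In Bmal1-/- the values at the hour of CT18 were 7.71, 13.7 and 13.7 FPKM on the 3 days and those at the hour of CT03 6.01, 5.95 and 8.09. The difference of the waves was 0.11 ± 0.076 (adjusted p = 0.573), which does not show that they are the same.

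Gabpa (chr16:84834925-84863779) ranged from 4.09 to 19.2 FPKM in Bmal1-/- (median 8.65) and from 4.94 to 25.9 in wild type (median 9.53), and the ranges overlapped. In Bmal1-/- its values at the hour of CT18 were 9.60, 11.5 and 19.2 FPKM, above 8.85, 4.82 and 5.46 at the hour of CT03 on each day. The wave was 0.53 ± 0.12 with its peak at 17.9 h (adjusted p = 0.0202), and 0.51 (adjusted p = 0.0602) without the low-correlation columns and 0.52 (adjusted p = 0.0581) without CT15 alone. Its call was also lost without day 2 and without day 3 (adjusted p up to 0.314 in limma). In wild type the wave was 0.12 ± 0.14 (adjusted p = 0.872), and the difference of the waves did not pass (0.55 ± 0.19, adjusted p = 0.143). A rhythm of Gabpa particular to Bmal1-/- was therefore not shown. Across Bmal1-/- libraries Gabpa and Elf1 had r = 0.694 (n = 24), against 0.161 in wild type, and 0.692 and 0.0447 without the low-correlation columns.

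Ets2, Elk1 and Elk4 had no called wave in either genotype. Ets2 (chr16:95702075-95721051), an early responder to growth signals, ranged from 23.4 to 33.4 FPKM in wild type and from 16.0 to 26.7 in Bmal1-/-, lower in Bmal1-/- at 24 of 24 time points (-0.34 ± 0.048). Elk1 (chrX:20933395-20950608; 2.70 against 1.77 FPKM at the median, -0.48 ± 0.070) and Elk4 (chr1:132007607-132032612; 33.9 against 25.3, -0.42 ± 0.078) were lower at 23 and 19 of 24. All 3 passed the adjusted p and missed the size limit, and without the low-correlation columns they were -0.30, -0.39 and -0.42. Without the size limit 10469 of all 14566 genes passed in slices. With each column rescaled Ets2 was 0.06 (adjusted p = 0.315) and Elk4 -0.03 (adjusted p = 0.805), so neither passed, and Elk1 was -0.20 (adjusted p = 0.0160).

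Counted together, 4 of 10 members had a called wave in wild-type slices, where 1.98% of all genes did, and 2 of 10 in Bmal1-/-, where 11.2% did. Arntl was not called in wild-type slices (0.20 ± 0.063, adjusted p = 0.139 in limma) or in Bmal1-/- slices (0.16 ± 0.051, adjusted p = 0.0912). The median amplitude of the members was 0.30 in wild type, against 0.12 for all genes, and 0.21 against 0.19 in Bmal1-/-. Without the low-correlation columns the counts were 1 and 1, and those of all genes fell from 289 to 56 and from 1594 to 644. The difference of the waves passed for 3 of 10 (4.13% of all genes), and for 0 without those columns. Trends passed for 3 of 10 in wild type (Spi1, Fli1 and Elk3, all upward; 20.1% of all genes; Spi1 and Ets2 without the low-correlation columns) and 0 of 10 in Bmal1-/- (1 at an unadjusted p under 0.05; 5.75%), and the difference of trends for 0 of 10 (2 at an unadjusted p under 0.05; 0.0687%).

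For genotype 2 of 10 members were called, Spi1 and Elk3, both lower (5.22% of all genes). All 10 differences were below 0, but so was the median over all genes (-0.34). The total FPKM of a slice column ran from 766546 to 2121562, and the reason for that median was not tested. With each column rescaled by the median of its gene ratios that median became 0.003, neither Spi1 nor Elk3 reached the size limit, and 6 of the 10 members lay below 0: Spi1 (-0.98), Elk3 (-0.68), Fli1 (-0.54), Ets1 (-0.42), Elk1 (-0.20) and Elk4 (-0.03). Elf1 (0.25), Gabpa (0.13), Erg (0.08) and Ets2 (0.06) were then above 0, so no direction can be given for these 4, and Elk4 did not pass the adjusted p. The share of higher genes among all called went from 22.6% to 59.4% with the rescaling.

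**Figure D4:**
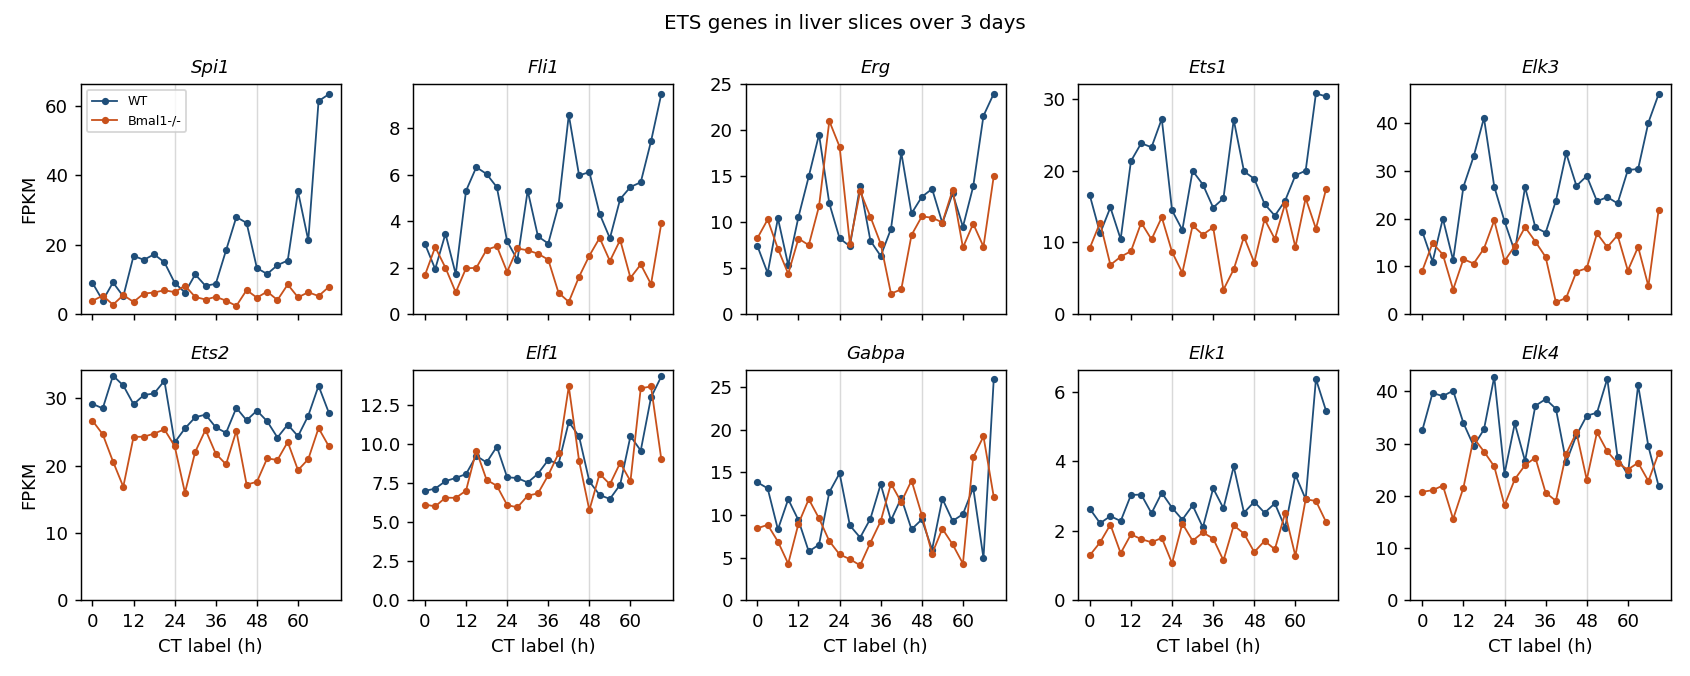
FPKM of the 10 ETS genes in liver slices against the CT label in hours, 1 point per column, wild type in blue and Bmal1-/- in orange, vertical lines at 24 and 48 h. Spi1 in wild type peaks higher each day, up to 63.4 FPKM, and stays at or below 8.54 in Bmal1-/-. Elf1 in wild type reads 8.82, 11.4 and 12.99 FPKM at CT18, CT42 and CT66.

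The genes most like each member were taken over the 48 slice columns, centred within genotype, among 9591 genes. For Spi1 they were Tyrobp (r = 0.955), Ctss (0.938) and Cd300c2 (0.934), genes of myeloid cells. Fli1 was closest to Cd38 (0.943), Ecscr and Afap1l1, Erg to Robo4 (0.907), Adgrf5 and Tie1, and Elk3 to Ephb4 (0.957), Mcam and Tie1. Most of these are known from blood vessel cells. Ets1 was closest to Gng11 (0.921), Mest and Pecam1. Ets2 (Rcc2, 0.807) and Gabpa (Eya3, 0.741) had weaker neighbours. Over the 43 columns left without the low-correlation ones Tyrobp (0.943), Cd38 (0.922), Ephb4 (0.930) and Rcc2 (0.790) were still first for their members, while Robo4 (0.848) and Gng11 (0.903) ranked second and Eya3 (0.733) 12th. All columns of a likeness share their library, and none of these values is a test.

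The rest of the family is set beside the shares over all genes. For genotype that share was 16.0% in fibroblasts and 5.22% in slices. Waves in Bmal1-/- slices passed for 11.2% of all genes, and the difference of waves for 4.13%. Trends passed for 31.1% in wild-type and 26.3% in Bmal1-/- fibroblasts, and for 20.1% in wild-type slices. The difference of trends in fibroblasts passed for 26.4%. Of 16 other ETS genes 7 were tested for genotype in fibroblasts and 2 were called, both lower in Bmal1-/-: Etv4 (medians 18.7 and 1.40 FPKM, -2.99 ± 0.090) and Etv5 (8.82 and 2.80, -1.35 ± 0.078), factors known to be induced by FGF and ERK signalling. Of 10 tested in slices 1 was called, Spic, a factor of red pulp and iron-handling macrophages (4.41 against 1.19 FPKM, -1.17 ± 0.21), and its wave also differed between genotypes (1.06 ± 0.24). In Bmal1-/- slices Ehf (0.56 ± 0.12, peak 16.3 h) and Elf2 (0.26 ± 0.060, peak 16.4 h) had called waves, set beside 16.2 h for Elf1. Trends were called in fibroblasts for Etv1, Etv3, Elf4 and Erf in wild type and for Etv4 (-0.44 ± 0.074 per 24 h) and Etv5 (-0.25 ± 0.060) in Bmal1-/-, where the trends of both also differed between genotypes (-0.49 ± 0.079 and -0.37 ± 0.079), and in wild-type slices for Etv5, Elf3 and Spic. Without the low-correlation columns no other ETS gene was called in slices for genotype, wave or trend. Among the partner proteins of the family, Runx1 (12.2 against 1.98 FPKM, -2.11 ± 0.053) and Gata2 (10.99 against 2.60, -1.73 ± 0.065) were lower in Bmal1-/- fibroblasts, and the coactivator Ep300 (0.35 ± 0.076) and Cbfb (0.30 ± 0.067) had waves in Bmal1-/- slices with peaks at 16.02 and 16.2 h, neither of which was called without the low-correlation columns.

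Known target genes of the members were counted as lists. Of 9 tested targets of PU.1, 7 were called lower in Bmal1-/- slices (among them Laptm5, 41.2 against 12.9 FPKM, and Coro1a, 15.8 against 5.27) and 7 differed in their wave, against 5.22% and 4.13% of all genes. Without the low-correlation columns these were 5 and 2 of 8, and with each column rescaled 5 and 6 of 9. These are genes of myeloid and other blood cells, and Csf1r is also in the macrophage list. Of 10 targets of ERG and FLI1, 7 are also in the endothelial list. Of those 10, 4 had a called wave in wild-type slices (1.98% of all genes) and 1, Vwf, in Bmal1-/- (11.2%). Cdh5, the endothelial cadherin, was at 0.74 ± 0.14 in wild type with its peak at 17.5 h. Without the low-correlation columns the counts were 1 and 0. The 10 targets of GABP, which include Cox4i1 (1202 against 787 FPKM), Atp5b (1542 against 987) and Tfam, had 0 called waves in limma in either genotype (3 at an unadjusted p under 0.05 in each) and 0 calls for genotype (9 at an unadjusted p under 0.05). Over all 14566 genes 10716 had an unadjusted genotype p under 0.05 in limma, and the median difference was -0.34. No target of GABP had a called wave beside that of Gabpa in Bmal1-/- slices. Of the other cell type lists, 5 of 8 fibroblast and 2 of 3 megakaryocyte genes were called lower in Bmal1-/- slices, 1 of 7 hepatocyte genes was called higher (4, 1 and 0 without the low-correlation columns), and none of 4 cholangiocyte, 3 stellate, 1 lymphocyte and 1 neutrophil gene was called in limma (1, 2, 1 and 1 at an unadjusted p under 0.05).

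In the short liver course Ets2 and Ets1 rose between T00 and T06 in both genotypes. Ets2 went from 4.81, 5.62 and 5.22 FPKM at T00 to 43.8, 80.7 and 55.9 at T06 in wild type, and from 4.46, 4.96 and 4.85 to 37.0, 58.7 and 45.9 in Bmal1-/-. Every T06 replicate lay above every T00 replicate, and the genotypes overlapped at both times. The changes on the log2 scale were 3.26 ± 0.22 (SE) and 3.04 ± 0.22. At T24 the means were 35.5 ± 5.195 (SD, n = 3) and 26.9 ± 3.49. Ets1 went from 2.18, 2.92 and 2.87 FPKM to 13.2, 19.0 and 15.3 in wild type and from 2.54, 2.34 and 2.52 to 12.8, 15.1 and 12.97 in Bmal1-/- (2.19 ± 0.18 and 2.08 ± 0.18). At T24 the wild-type replicates of Ets1 were 8.23, 9.70 and 11.03 and the Bmal1-/- replicates 13.5, 18.6 and 15.7, which do not overlap.

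Of 9 tested members 7 changed over time in wild type and 5 in Bmal1-/-, in a course where 64.4% and 72.2% of all genes did, so these counts are near the share over all genes or below it. Ets2, Ets1, Elf1 and Erg rose in both. Elf1 rose by 0.74 ± 0.12 at T06 in wild type and 0.72 ± 0.12 at T24 in Bmal1-/-, and Erg by 0.90 ± 0.21 and 0.76 ± 0.21 at T24. Elk3 was called in both, with -0.82 ± 0.24 at T12 in wild type and -0.46 ± 0.24 at T06 in Bmal1-/-. Spi1 (1.15 ± 0.28 at T06) and Elk4 (0.74 ± 0.18 at T12) were called in wild type. Several of these calls were lost when 1 replicate was left out. In wild type Spi1 was lost without replicate 1 (adjusted p = 0.0642), and Elk3 and Elk4 without replicate 2 (0.320 and 0.130) or 3 (0.0764 and 0.0896). In Bmal1-/- Elk3 was lost without replicate 3 (0.0925) and Erg without replicate 2 (0.111). In Bmal1-/- Spi1 and Elk4 were 0.81 ± 0.28 (adjusted p = 0.0565) and 0.52 ± 0.18 (adjusted p = 0.0729). Without regard to sign, the members' median largest change was 0.816 in wild type, against 0.807 for all genes, and 0.719 against 0.932 in Bmal1-/-. With sign it was 0.74 against -0.13 and 0.72 against -0.19, where genes that rose and genes that fell offset each other. Without the limit on low values Fli1, whose means ran from 0.534 to 1.34 FPKM in Bmal1-/-, was also called there (0.61 ± 0.13). The time from dexamethasone to T00 is not given in the sources used here.

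Between genotypes 1 call was made in this course. Averaged over the 4 times 0 of 9 members passed in limma (1 at an unadjusted p under 0.05; 18.7% of all genes). By time, 0 of 9 passed at T00 (0 at an unadjusted p under 0.05; 4.45%), 0 at T06 (0; 1.67%) and 0 at T12 (3; 2.4%), and 1 of 9 passed at T24 (17.9%), which was Ets1 (0.67 ± 0.18 higher in Bmal1-/-, adjusted p = 0.0159). That direction is opposite to the one of Ets1 in fibroblasts and slices, and the call was lost without wild-type replicate 1 (0.57, adjusted p = 0.0899) or without Bmal1-/- replicate 3 (0.67, adjusted p = 0.0755). Of the other ETS genes Etv6 (0.76 ± 0.21), Elf2 (0.48 ± 0.11) and Elf4 (0.47 ± 0.15) were also higher in Bmal1-/- at T24, and Etv6 (0.30 ± 0.10) and Elf2 (0.18 ± 0.056) in the mean over the times. The difference of the time courses passed for 0 of 9 (2 at an unadjusted p under 0.05; 1.75%). Spi1, which was lower in Bmal1-/- slices of the long course, had means of 3.19 ± 0.415 and 3.11 ± 0.400 FPKM (SD, n = 3) at T00, and the summed macrophage markers ranged from 224 to 627 FPKM in wild type and from 193 to 477 in Bmal1-/-.

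**Figure D5:**
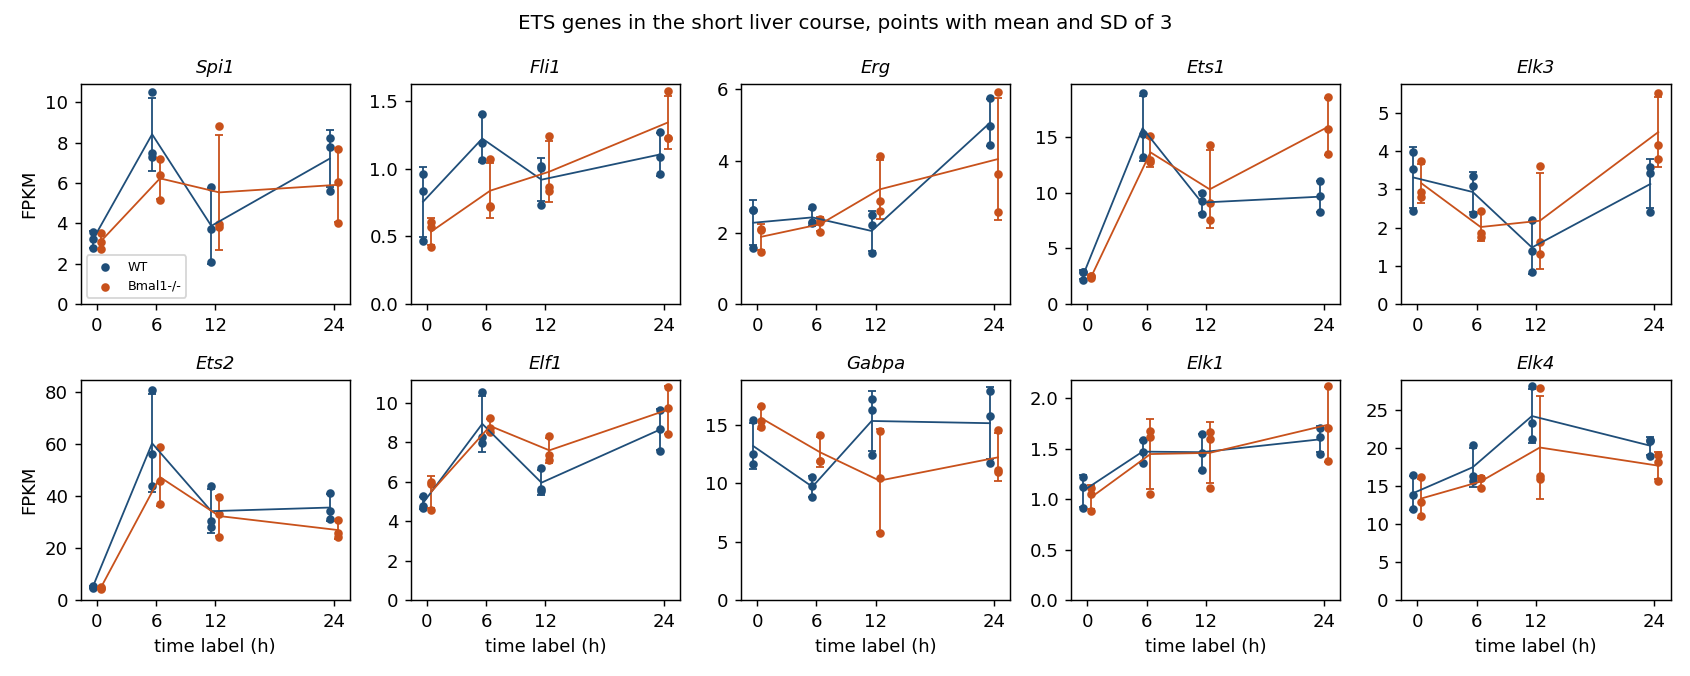
FPKM of the 10 ETS genes in the short liver course against the time label in hours, points for the 3 replicates and lines with bars for mean and SD, wild type in blue and Bmal1-/- in orange. Ets2 and Ets1 rise between T00 and T06 in both genotypes, and at T24 the 3 Bmal1-/- points of Ets1 (13.5 to 18.6 FPKM) lie above the wild-type points (8.23 to 11.03).

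Among all 12547 genes tested over the short course 4019 rose and 4062 fell in wild type, and 4313 and 4749 in Bmal1-/-. Of 10 tested other ETS genes 9 rose in each genotype, among them Elf3 (3.60 ± 0.44 in wild type and 3.99 ± 0.44 in Bmal1-/-, both at T06) and Ehf (2.93 ± 0.49 and 3.08 ± 0.49), both epithelial members. The others were Etv3, Etv4, Etv5, Etv6, Elf2, Elf4 and Spic. Of 11 tested targets of the ternary complex and serum response factors all 11 rose in each genotype, as did 4019 and 4313 of all 12547 genes. Fos went from a mean of 13.1 FPKM at T00 to 63.7 at T06 in wild type and from 11.9 to 52.8 in Bmal1-/-, and Egr1 from 11.85 to 85.4 and from 11.01 to 83.9. Elk1 itself was not called (0.32 ± 0.14 and 0.43 ± 0.14 at T24). Of the 10 targets of GABP 9 were called in each genotype, where 64.4% and 72.2% of all genes were, 7 of them lower in wild type and 8 in Bmal1-/-, such as Cox4i1 (-0.90 ± 0.19 and -1.39 ± 0.19 at T24) and Atp5b (-1.18 ± 0.16 and -1.26 ± 0.16). Gabpa did not pass in either (-0.40 ± 0.22 at T06, adjusted p = 0.0726, and -0.64 ± 0.22 at T12, adjusted p = 0.0873).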

How the data were processed

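The series measured poly(A) RNA by stranded single-end sequencing in mouse skin fibroblasts and liver slices, 336 runs in all, of which 3 were joined into each column of the long courses and 2 into each column of the short course. The submitters' processing notes name TopHat2 2.1.0, Cuffdiff and the build GRCm38, with no parameters. The deposited values are FPKM per gene, normalized by the authors, and are not counts. The fibroblast table also gives confidence bounds and a status, and 118 genes without an OK status were left out. No further column of FPKM was left unused.

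From these values log2(FPKM + 1) was computed and fitted with limma 3.58.1 in R 4.3.3 (empirical Bayes with a variance trend, Benjamini-Hochberg over all genes tested, genes averaging 1 FPKM or more over the columns fitted). The long courses were fitted with a 24 h cosine and sine and a linear trend, within each genotype and with genotype terms over both. Rhythm and trend were called at an adjusted p below 0.05 and genotype also at a log2 difference of at least 1. The short course had 8 cells of 3, with contrasts for genotype, time and their interaction. Fold changes on this scale understate the change of low genes. Whether replicate numbers pair samples was checked: same-numbered samples had correlations of deviations from -0.081 to 0.216 within and from -0.113 to 0.0893 across genotypes. The fit has no block, though low correlations cannot exclude pairing. Alternatives were the pseudocount 0.1, no filter, rescaling, leaving out days, time points and replicates, other trend terms, a block and no size limit. Leaving out the low-correlation columns and the comparison of trends were added after the data were seen. The fits were tested on simulated data.

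The genes to be named were the 10 members, Arntl, the 3 genes most like each of 7 members, every called gene among the other ETS genes, and from each list the 2 with the highest mean FPKM and the called genes among the 2 smallest p. Some list genes named beyond that rule were chosen after their values were seen. The members and lists were chosen with earlier results of these data known.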

Additional observations from a re-analysis of the deposited data

Results flagged for a closer look

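The effect of time was called different between the genotypes, by a test of the difference itself, for 6 results. Their calls depended on the setting. The 3 trend differences were lost without day 1. The 3 wave differences were lost without the filter, without day 2, without day 3 and without the low-correlation columns. In fibroblasts the trend per 24 h in Bmal1-/- minus that in wild type was -0.16 for Elk3, -0.20 for Ets1 and 0.096 for Elf1 on the log2 scale. In slices the size of the difference between the 24 h waves was 0.72 for Spi1, 0.82 for Elk3 and 0.65 for Fli1, a size that has no sign. The Ets2 genotype difference was above 0 at 24 of 24 fibroblast time points and below 0 at 24 of 24 slice time points (-0.34), and the difference between systems was not tested. To 2 decimals the slice value is that of the median of all genes there (-0.34), and with the slice columns rescaled Ets2 was 0.06 (adjusted p = 0.315 in limma), so no direction can be given for Ets2 in slices.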

How the results depend on the processing

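Counts of called members in the slices depended most on the setting, and the cause was not tested unless fewer samples or more genes were fitted. Rhythm in wild type (4) became 0 without the filter, 0, 1 and 0 without day 1, 2 and 3, 1 without the low-correlation columns and 0 to 5 with 1 time point left out. Rhythm in Bmal1-/- (2) became 4, 0 and 0 without day 1, 2 and 3, 1 without the low-correlation columns and 0 to 2 with 1 time point left out. The rhythm difference (3) became 0 without the filter, without day 2, without day 3 and without the low-correlation columns, and 0 to 3 with 1 time point left out. Trend in wild-type slices (3) became 1 without the filter, 0 without day 3 and 1 to 4 with 1 time point left out. Trend in Bmal1-/- slices (0) became 1 without the low-correlation columns and 0 to 1 with 1 time point left out. Genotype in slices (2) became 0 with rescaling, 1 without day 3, 7 without the size limit, 1 without the low-correlation columns and 1 to 2 with 1 time point left out. Rescaling turned the sign of Gabpa (0.131), Ets2 (0.0571), Elf1 (0.250) and Erg (0.0834) there, and the Ets2 trend in wild type was 0.0526 without day 1.

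In fibroblasts the trend in wild type (4) became 1 without day 1 and 4 to 5 with 1 time point left out. The trend in Bmal1-/- (0) became 1 without day 3 and 0 to 2 with 1 time point left out. The trend difference (3) became 5 without the filter and 0 without day 1, and genotype (1) became 6 without the size limit. Over all genes 12171 of 15065 were called for genotype without that limit. Signs turned for the trends of Ets2 (-0.0470) and Ets1 (0.0061) in Bmal1-/- without day 1, for the Elk1 trend difference (7.528e-04) without day 3, and for the Elf1 genotype difference with rescaling (0.0445) and without day 1 (0.0208).

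In the short course, leaving out 1 replicate gave 0 to 2 calls for the mean genotype difference, 0 to 1 at T24, 5 to 8 for time in wild type and 5 to 6 in Bmal1-/-, where rescaling gave 8. Correlations between same-numbered samples were low, and the labels do not say whether the numbers pair the samples. Over all genes the mean genotype difference called 2350, against 2423 with the replicate block and 560 with the mean per replicate number. With the replicate block time in wild type called 8 members, Gabpa being added (-0.40, adjusted p = 0.0450 in limma), and of 25 results for single genes the other 24 kept their side of the threshold.

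Over all genes, the slice counts moved by more than 1.5 times in several settings: rhythm in wild type was 289, and 0 without the filter, 796 with no trend term and 1931 with day as a factor. Without day 1, 2 and 3 that count was 0, 25 and 0, and without the low-correlation columns 56. Rhythm in Bmal1-/- was 1594, and 702 without the filter. Leaving out day 1, 2 and 3 gave 2734, 0 and 0 there, and leaving out the low-correlation columns 644. The genotype count was 761, and 1394 with the pseudocount 0.1 and 10469 without the size limit.

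The depth is unknown, so no counting error is given, and low values such as those of Fli1, Erg and Spi1 in fibroblasts are the least certain. With 1 column per time point the waves rest on 3 cycles.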
